A study of Mus musculus with 18 samples.

Results

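The genes described here are 35 mouse genes of glycolysis and of the response to low oxygen, out of 22907 gene symbols on the array. A member was any probe assigned to 1 of the 35 listed symbols through its accession, and the brightest probe stood for each gene. All 35 were found, on 59 probes, and all 35 were well above background on every one of the 18 arrays, so no member was lost to a filter. By role they comprise 3 transporters of glucose and lactate, 10 genes of upper glycolysis, 9 of lower glycolysis and the fate of pyruvate, 5 of oxygen sensing and 8 targets of hypoxia outside glycolysis.

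RNA of female mice came from ectopic lesions, eutopic endometrium and uterus of ERBOE mice, which overexpress oestrogen receptor beta (ERβ), and of PRCre/+ mice, their controls. PRCre denotes Cre recombinase driven from the progesterone receptor locus, which is active in progesterone receptor-bearing cells; the sources used here do not say which alleles besides the ERβ transgene the ERBOE mice carry. ERBOE lesions and PRCre lesions grew from one 2 mm uterine fragment of the named genotype placed in a wild-type C57BL/6J host described as intact. ERBOE and PRCre eutopic endometrium came from hosts of the named genotype that carried a wild-type fragment, so the cells of a lesion's host and of its implant differ in genotype. Donors and hosts were 8 weeks old at surgery, and tissue was taken at estrus 4 weeks later. ERBOE and PRCre uteri came at estrus from mice aged 12 weeks without surgery. Each group was 9 animals pooled by 3 into 3 arrays. The labels do not all match: the ERBOE samples titled as lesions or eutopic tissue carry a source field that says their mice had no endometriosis, and the text on eutopic groups mentions a lesion harvest. Titles were followed.

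Glycolysis splits glucose into pyruvate, which Ldha reduces to lactate and whose oxidation in the mitochondrion Pdk1 restrains. When oxygen falls, the prolyl hydroxylases encoded by Egln1 and Egln3 stop marking hypoxia-inducible factors (HIF, encoded by Hif1a and Epas1) for destruction through Vhl. The stabilised factors then bind a short core motif near genes for glucose uptake, glycolysis, acid handling and mitochondrial turnover. In the uterus this programme is known from menstruation, implantation and the early survival of endometrial implants.

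The HIF core motif is ACGTG or GCGTG. In the RefSeq promoter windows of build GRCm38.p6, which are 300 bases long and run across a start site, 31 of the 35 members had at least 1 window, 44 windows in all. Bnip3l, Epas1, Ndrg1 and Slc2a3 had none. On either strand ACGTG was present in 23 of the 44 windows (52.3%), against 19.6% of 32851 windows of all genes, and either form was present in 34 (77.3%), against 43.8%. The palindrome CACGTG, which contains ACGTG on both strands and is also the E-box core, was in 11.4% of the members' windows and 7.15% of all windows. The members' windows were also richer in CpG, with a median of 20 CpG per window against 7, so a motif that contains CpG has more places to occur. Windows of 5 members that the results turn on follow. Pfkp, Pfkfb3 and Pfkfb4 had the smallest p between lesions and uterus, and Egln3 and Ankrd37 were among the genes that varied most between arrays. Capitals mark every ACGTG or GCGTG on either strand. The windows lie at chr13:6648722-6649021 (minus strand) for Pfkp, chr2:11502041-11502340 (minus) for Pfkfb3, chr9:108991652-108991951 (plus) for Pfkfb4, chr12:54203825-54204124 (minus) for Egln3 and chr8:45999801-46000100 (minus) for Ankrd37.
Pfkp: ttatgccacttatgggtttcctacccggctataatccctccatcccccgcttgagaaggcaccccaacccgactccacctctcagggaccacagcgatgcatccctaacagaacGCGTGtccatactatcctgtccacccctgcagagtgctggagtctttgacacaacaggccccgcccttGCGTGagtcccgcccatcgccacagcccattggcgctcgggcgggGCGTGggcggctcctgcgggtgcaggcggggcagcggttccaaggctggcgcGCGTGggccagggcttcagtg
Pfkfb3: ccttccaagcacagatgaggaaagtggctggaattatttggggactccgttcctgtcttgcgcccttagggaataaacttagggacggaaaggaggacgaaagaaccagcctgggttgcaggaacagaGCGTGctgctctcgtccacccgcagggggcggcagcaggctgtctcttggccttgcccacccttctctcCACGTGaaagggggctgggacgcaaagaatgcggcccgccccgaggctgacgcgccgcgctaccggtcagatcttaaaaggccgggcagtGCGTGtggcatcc
Pfkfb4: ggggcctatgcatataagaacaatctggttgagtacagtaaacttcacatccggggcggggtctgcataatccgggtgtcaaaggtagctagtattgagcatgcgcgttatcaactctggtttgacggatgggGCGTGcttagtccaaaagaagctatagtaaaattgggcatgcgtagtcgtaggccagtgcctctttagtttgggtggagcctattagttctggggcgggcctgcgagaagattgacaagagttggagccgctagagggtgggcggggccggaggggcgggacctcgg
Egln3: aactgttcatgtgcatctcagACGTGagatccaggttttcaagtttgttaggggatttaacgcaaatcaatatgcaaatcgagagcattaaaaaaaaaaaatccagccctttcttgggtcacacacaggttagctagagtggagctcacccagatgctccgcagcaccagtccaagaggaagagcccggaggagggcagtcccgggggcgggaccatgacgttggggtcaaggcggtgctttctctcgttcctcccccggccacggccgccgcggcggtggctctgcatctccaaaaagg
Ankrd37: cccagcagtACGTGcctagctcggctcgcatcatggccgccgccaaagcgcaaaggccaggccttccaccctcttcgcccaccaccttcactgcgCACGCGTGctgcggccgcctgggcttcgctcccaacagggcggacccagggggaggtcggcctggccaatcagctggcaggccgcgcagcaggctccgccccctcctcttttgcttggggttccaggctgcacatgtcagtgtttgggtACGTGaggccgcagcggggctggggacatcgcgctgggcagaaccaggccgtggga
The Pfkp window held 4 GCGTG and 0 ACGTG, and the Pfkfb3 window 2 of each, with its ACGTG pair forming one CACGTG. The Pfkfb4 window held 1 GCGTG, the Egln3 window 1 ACGTG and the Ankrd37 window 2 of each. A match in these letters is a description of the window and not evidence of binding.

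Levels are log2 processed intensity minus the array's own 75th percentile, so 0 is the 75th percentile and 1 unit is a doubling of signal. The 75th percentile signal was 239.6 on PRCre uterus 1 and 455.1 to 744.7 on the other 17 arrays, the share of probes well above background was 55.3% to 74.2%, with 0 saturated. The brightest Esr2 probe, for the gene of ERβ, averaged 2.19 to 2.45 in the ERBOE groups and 2.43 to 2.69 in the PRCre groups, and its largest genotype difference was -0.26 ± 0.20 (SE, n = 3 arrays per group; limma adjusted p = 0.993, in lesions). No source used here says whether that probe reads the transgene. All 12 epithelial and all 11 stromal markers were well above background on every array of every group. Adipocyte markers were the cell type difference that stood out: their summed level was 6.7 to 9.5 in lesions, 1.3 to 5.1 in eutopic endometrium and 1.2 to 2.2 in uterus, 11 of 12 passed higher in lesions against each of the other tissues, and the marker Plin1 was well above background on no uterus array. All 11 macrophage markers also read higher in lesions, and 1 passed against eutopic endometrium and 2 against uterus. Of 9 neutrophil markers 2 passed higher in lesions against eutopic endometrium and 2 against uterus. The part of these cells in the members' levels was not tested, and in bulk RNA fewer cells of a type and less RNA per cell cannot be told apart.

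PRCre eutopic 2 and PRCre uterus 1 stood apart among the members. PRCre eutopic 2 was the highest of all 18 arrays for 11 of the 35 genes, was the highest of its group for 27, and exceeded the mean of its 2 companions by a median of 0.95. Its epithelial markers summed to 9.0, against 6.9 and 8.5 on the companions, and its erythroid markers to 3.7, against 7.1 and 7.4. PRCre uterus 1, the array with the dimmest 75th percentile and the lowest array weight of the 18 (0.267), was the highest of 18 for Bnip3, Bnip3l and Ankrd37 and the lowest of 18 for 9 genes. PRCre eutopic 2 had an array weight of 1.26, so the weights did not mark it. Its companion PRCre eutopic 1 was the lowest of 18 for 7 genes. Values without PRCre eutopic 2 and PRCre uterus 1 are set beside the main results of the PRCre groups.

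**Figure D1:**
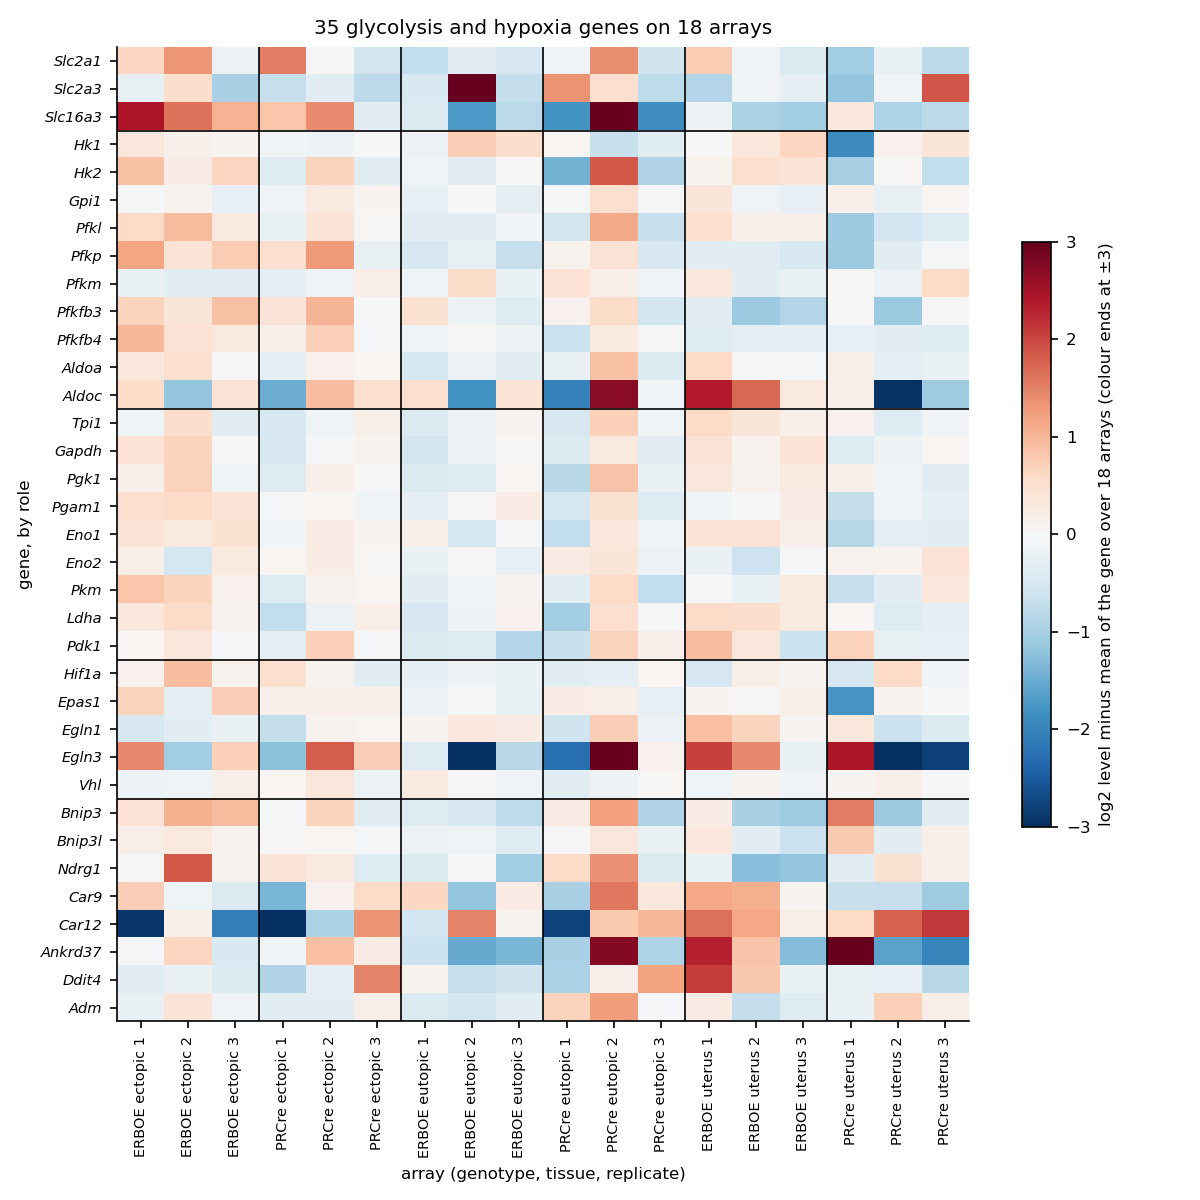
Each cell is the log2 level of 1 gene on 1 array minus that gene's mean over the 18 arrays, with genes in rows by role and arrays in columns by group (colour ends at ±3). PRCre eutopic 2 is red for most rows, while Egln3, Ankrd37, Aldoc, Car12 and Slc16a3 change colour within groups.

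The range over the 18 arrays had a median of 1.31 log2 units among the 9 genes of lower glycolysis (1.06 to 1.80), 1.63 among the 5 of oxygen sensing (0.63 to 7.51), 2.18 among the 10 of upper glycolysis (0.78 to 5.66), 3.00 among the 8 other hypoxia targets (1.42 to 5.29) and 4.33 among the 3 transporters (2.58 to 5.05). Some of the narrowest were enzymes: Gpi1, which isomerises glucose 6-phosphate, spanned 0.78 log2 units, Pfkm, the muscle form of phosphofructokinase, 0.94, Eno2, the neuronal enolase, 1.06, and Tpi1, triosephosphate isomerase, 1.20. Vhl, the ubiquitin ligase subunit that recognises hydroxylated HIF, had the narrowest range, 0.63. The widest ranges were 7.51 units for Egln3, 5.66 for Aldoc, the brain form of aldolase, 5.29 for Ankrd37, an ankyrin repeat gene, 5.16 for the carbonic anhydrase gene Car12 and 5.05 for Slc16a3, which exports lactate. Arrays of one group differed as well, since the median SD within a group was 1.49 for Egln3, 1.30 for Aldoc and 1.19 for Ankrd37, against 0.20 for Gpi1 and 0.17 for Vhl.

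Egln3 read 0.68, -1.80 and -0.05 in ERBOE lesions and -1.98, 1.07 and -0.01 in PRCre lesions. It read -1.14, -3.83 and -1.58 in ERBOE eutopic endometrium and -3.03, 3.54 and -0.63 in PRCre eutopic endometrium. In uterus it read 1.31, 0.68 and -0.99 for ERBOE and 1.70, -3.97 and -3.55 for PRCre. Both PRCre eutopic endometrium and PRCre uterus thus held 1 high array and lower ones, and every pair of groups of the same tissue overlapped. Ankrd37 had the same high arrays. It read 2.66 on PRCre eutopic 2, against -1.05 and -1.01 on its companions, and 3.20 on PRCre uterus 1, against -1.68 and -2.09. In ERBOE uterus Ankrd37 read 2.24, 0.77 and -1.38, and in ERBOE eutopic endometrium -0.73, -1.59 and -1.46, so its ERBOE groups were narrower than the PRCre groups of the same tissues. Bnip3, which directs mitochondria to autophagy, read 4.53, 1.90 and 2.67 in PRCre uterus and 3.23, 4.23 and 2.09 in PRCre eutopic endometrium. For these 3 genes the high array of each PRCre group was the same. Ldha, the last enzyme of anaerobic glycolysis, was highest on those arrays too, over a narrower range. It ran from 6.16 to 6.61 in PRCre uterus and from 5.53 to 7.05 in PRCre eutopic endometrium. PRCre uterus 1 was the highest of its group for 17 of the 35 genes and PRCre eutopic 2 for 27.

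**Figure D2:**
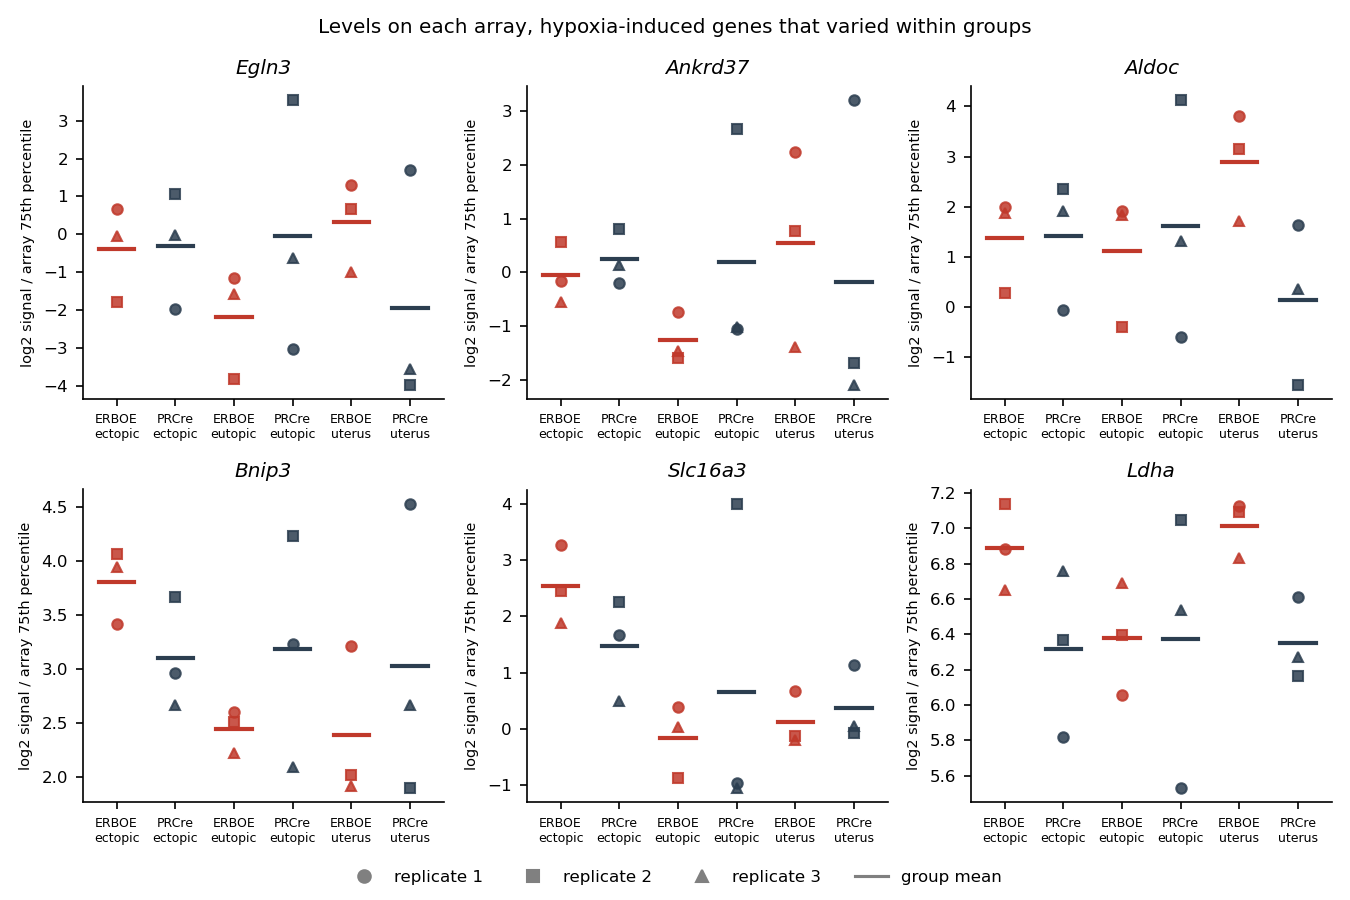
Log2 level of 6 members on each of the 18 arrays (y axes, own scale per gene), by group, with a marker shape for each replicate number and a bar for the group mean. The squares of PRCre eutopic endometrium and the circles of PRCre uterus are the high points of Egln3 (3.54 and 1.70) and Ankrd37 (2.66 and 3.20).

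Lesions against uterus, both genotypes together, asks how the implanted tissue differs from the organ it came from. Pfkp, the platelet form of phosphofructokinase and a rate-setting enzyme of glycolysis, rose 2.12-fold in lesions, and it was the single member of 35 to pass in limma (adjusted p under 0.05), where 2.09% of the 33179 features passed, 1.42% of them higher. Pfkp read 1.83, 1.06 and 1.42 in ERBOE lesions and 1.17, 1.94 and 0.43 in PRCre lesions, against 0.32, 0.34 and 0.18 in ERBOE uterus and -0.44, 0.32 and 0.62 in PRCre uterus. PRCre lesion 3 lay below the highest uterus array, and the other 5 lesion arrays lay above all 6 uterus arrays. The difference was 1.08 ± 0.26 (SE, n = 6 arrays per side; limma adjusted p = 0.0479), and it was 1.01 in PRCre and 1.15 in ERBOE alone. It was 0.35 within slide 1 and 1.15 within slide 2, the slides that held both tissues of both genotypes, and with slide as a block the adjusted p was 0.0582. Without PRCre uterus 1 it was 0.93 (adjusted p = 0.0899), without PRCre eutopic 2 1.08 (0.0505) and without both 0.93 (0.0888), so the call ends with either array left out. With 1 array left out at a time the call held without PRCre lesion 3, ERBOE lesion 2, PRCre uterus 3 or PRCre eutopic 3, and it ended without each of the other arrays, whose omission gave adjusted p of 0.0505 to 0.135. The lowest difference, 0.89 (adjusted p = 0.118), came without PRCre lesion 2. Its other probe read 1.16.

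Pfkfb3 and Pfkfb4 make the bifunctional enzymes that set the level of fructose 2,6-bisphosphate, the main activator of phosphofructokinase. Pfkfb3 read 2.43, 2.13 and 2.65 in ERBOE lesions and 2.14, 2.77 and 1.75 in PRCre lesions, against 1.44, 0.66 and 0.88 in ERBOE uterus and 1.78, 0.64 and 1.76 in PRCre uterus. Each ERBOE lesion array lay above all ERBOE uterus arrays, whereas PRCre lesion 3 lay just below PRCre uterus 1 and 3. The difference of 1.11 ± 0.27 missed the threshold (adjusted p = 0.0510), was 0.61 and 1.90 within slides 1 and 2, and was 1.21 (adjusted p = 0.0498) without both doubted arrays. Pfkfb4 read 2.06, 1.50 and 1.34 in ERBOE lesions and 1.20, 1.78 and 1.01 in PRCre lesions, against 0.70, 0.77 and 0.78 in ERBOE uterus and 0.82, 0.71 and 0.67 in PRCre uterus. It was the 1 member of 35 whose 6 lesion arrays all lay above its 6 uterus arrays, a pattern that 0.868% of all features showed. Its difference was 0.74 ± 0.19 (adjusted p = 0.0554), with 0.53 and 0.68 within slides and 0.76 (adjusted p = 0.0583) without both arrays.

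With Pfkp, 6 members had an unadjusted p under 0.05 in lesions against uterus, 5 higher and 1 lower, at a rate near that of all features (16.2%). Slc16a3 read 3.26, 2.45 and 1.89 in ERBOE lesions and 1.67, 2.26 and 0.50 in PRCre lesions, against 0.68, -0.12 and -0.19 in ERBOE uterus and 1.14, -0.08 and 0.05 in PRCre uterus. All 3 ERBOE lesion arrays lay above every uterus array, while PRCre lesion 3 lay within the uterus range, and the difference was 1.76 ± 0.71 (adjusted p = 0.226). Without PRCre eutopic 2, an array of another tissue that enters only the shared estimate of spread, the adjusted p was 0.0237, and within slides 1 and 2 the difference was 1.55 and 2.02. Car12, a membrane carbonic anhydrase, was the member furthest below uterus. It read -2.54, 0.55 and -1.68 in ERBOE lesions and -2.66, -0.57 and 1.74 in PRCre lesions, against 2.04, 1.56 and 0.56 in ERBOE uterus and 0.98, 2.17 and 2.50 in PRCre uterus. Lesion arrays ran from far below to within the uterus range, and the difference was -2.49 ± 0.81 (adjusted p = 0.133), with -0.39 and -3.51 within slides. Pgam1, phosphoglycerate mutase, read 4.25, 4.34 and 4.17 in ERBOE lesions and 3.73, 3.82 and 3.68 in PRCre lesions, against 3.62, 3.77 and 4.01 in ERBOE uterus and 3.03, 3.67 and 3.46 in PRCre uterus. Its lesions lay above the uteri of the same genotype, with a difference of 0.41 ± 0.18 (adjusted p = 0.278) and 0.28 and 0.25 within slides. Over the 35 genes the median was 0.08, with 22 higher and 13 lower, against -0.07 over all features, and it was 0.15 without both doubted arrays.

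Within each genotype 0 of 35 passed between lesions and uterus, where 1.24% of features passed in ERBOE (0.949% higher and 0.292% lower) and 0.00904% in PRCre (0.00603% higher and 0.00301% lower). In ERBOE, 7 members lay above without overlap and 3 below, where 8.6% of features lay above and 11.6% below. Besides Pfkp, Pfkfb3, Pfkfb4, Slc16a3 and Pgam1 these were Ndrg1, a stress-induced differentiation gene, at 1.52 ± 0.53 (limma adjusted p = 0.220) and Bnip3 at 1.42 ± 0.62 (0.367). Ndrg1 read 3.74, 5.55 and 3.80 in ERBOE lesions, against 3.51, 2.46 and 2.54 in ERBOE uterus, with lesion 2 far above the other 2. Below lay Car12, Egln1 (-0.89) and Ddit4, an inhibitor of mTOR signalling (-1.22). In PRCre, 5 lay above and 0 below, where 5.24% and 8.84% of features did: Pfkl (0.76), Epas1 (0.72), Pfkfb4 (0.60), Eno1 (0.57) and Pgam1 (0.36). Without PRCre uterus 1 these differences were 0.56 for Pfkl, 0.11 for Epas1, 0.64 for Pfkfb4, 0.38 for Eno1 and 0.18 for Pgam1. The counts without overlap were then 9 and 4, against 11.1% and 16.5% of features. Pfkfb4 and Pgam1 were above without overlap in both genotypes.

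**Figure D3:**
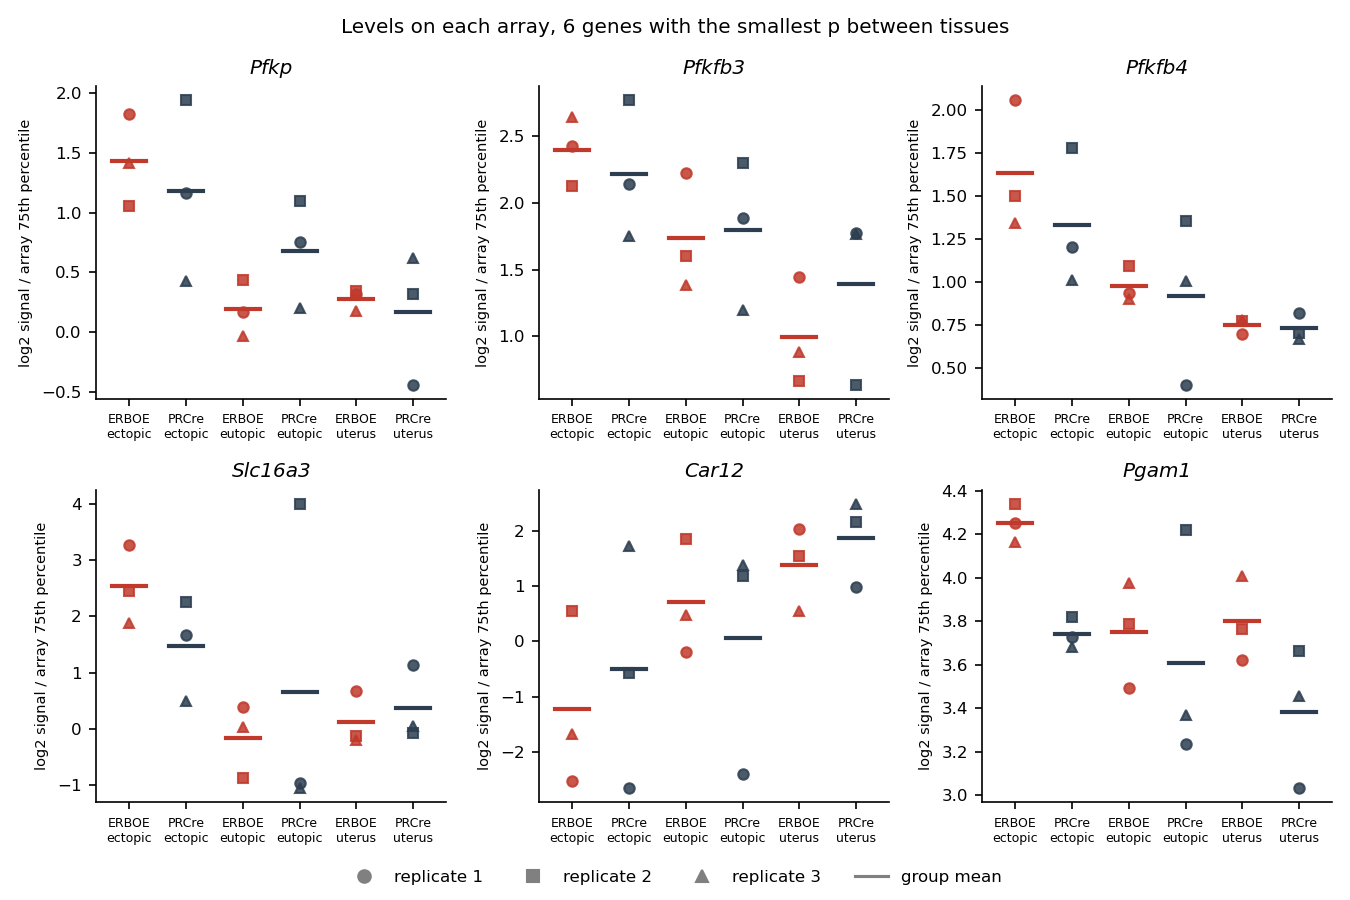
Log2 level of the 6 members with the smallest p between tissues on each array (y axes, own scale per gene), by group from ERBOE lesions at the left to PRCre uterus at the right, with bars at group means. Pfkfb4 has every lesion point above every uterus point, and the square of PRCre eutopic endometrium is the highest point of Slc16a3 at 4.00.

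Lesions against eutopic endometrium sets implants of a genotype against the uterine lining of other mice of that genotype. The lesions grew in wild-type hosts, so the eutopic arrays are not the lining of the lesions' own hosts. In the ERBOE groups most members read higher in lesions, from lactate export through the glycolytic chain to HIF targets, with modest differences each. Of the 35, 29 read higher and 6 lower, with a median of 0.51, against -0.13 over all features. The 3 lesion arrays lay above the 3 eutopic arrays for 17 members and below for 2, where 6.8% of all features lay above and 13.6% below. None of the 35 passed in limma, where 0.6% of features did (0.464% higher and 0.136% lower), and 7 members had an unadjusted p under 0.05, against 10.6% of features. Neither doubted array is in these groups, though both enter the shared estimate of spread behind each SE and p. The median was 0.40 within slide 2 and 0.54 within slide 3. In the same comparison 14 of 14 proliferation markers (median 0.90), 11 of 11 endothelial markers (0.66), 11 of 11 macrophage markers (1.20) and 12 of 12 adipocyte markers (6.89) read higher and 9 of 9 smooth muscle markers (-0.43) read lower, with 10 adipocyte markers passing and 0 of the others, and their part was not tested.

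The 17 genes ran through every role. Among transporters, Slc16a3 read 3.26, 2.45 and 1.89 in ERBOE lesions, against 0.39, -0.88 and 0.03 in ERBOE eutopic endometrium, a difference of 2.68 ± 1.00 (limma adjusted p = 0.341). Its SD was 0.69 and 0.65 in these groups but 2.89 in PRCre eutopic endometrium, which enters the shared spread. Slc2a1, the basal glucose transporter, read 1.54, 2.24 and 0.74, against 0.19, 0.58 and 0.42, and differed by 1.11. Slc2a3, the neuronal-type glucose transporter, went the other way by -0.90, with ERBOE eutopic 2 at 2.99 and its companions at -0.64 and -0.89. In upper glycolysis Pfkp read 1.83, 1.06 and 1.42 in lesions, against 0.17, 0.43 and -0.03 (1.25 ± 0.37; adjusted p = 0.192, the smallest of the 35). Pfkl, the liver form, differed by 0.86, Hk2, the inducible hexokinase, by 0.73, Pfkfb4 by 0.66 and Aldoa, the main aldolase, by 0.60. Pfkm differed by -0.35 and lay below, so the 3 phosphofructokinase genes did not read alike.

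In lower glycolysis all 9 genes read higher in ERBOE lesions, and 4 did so without overlap: Pdk1 by 0.69, Pkm, pyruvate kinase, by 0.63, Eno1, the common enolase, by 0.51 and Pgam1 by 0.50. Gapdh differed by 0.60, Ldha by 0.51 and Pgk1, phosphoglycerate kinase, by 0.49, with overlap. Gapdh is often used to scale other measurements, and it read 6.88, 7.12 and 6.45 in lesions, against 5.89, 6.29 and 6.48, with 1 lesion array inside the eutopic range. Of the HIF genes Hif1a read 2.56, 3.36 and 2.53, against 2.14, 2.27 and 2.24, and differed by 0.60 ± 0.32, while Epas1 differed by 0.50. Egln1 lay below in every lesion array, at 2.89, 3.05 and 3.18 against 3.48, 3.70 and 3.59, a difference of -0.55. Of 8 HIF targets outside glycolysis 7 read higher, with Bnip3 at 3.42, 4.06 and 3.94 against 2.61, 2.52 and 2.23 (1.36 ± 0.62; adjusted p = 0.454), Ankrd37 differing by 1.22, Ndrg1 by 1.14, Adm, the vasodilator peptide adrenomedullin, by 0.45 and Bnip3l, the close relative of Bnip3, by 0.41. Car12 was the exception at -1.94.

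The same contrast in the PRCre groups depended on one array. With all arrays, 17 members read higher and 18 lower, with a median of -0.02, against -0.06 over all features, no member lay clear of the other group in either direction (2.79% of all features lay above and 3.91% below), and none passed (0.00301% of features did). Without PRCre eutopic 2 the median was 0.28, 31 of 35 read higher, and 6 lay above without overlap, against 6.29% of features in that smaller comparison. Slc16a3 shows how: it read 1.67, 2.26 and 0.50 in PRCre lesions, against -0.96, 4.00 and -1.05 in PRCre eutopic endometrium. Slide 2 was the one slide that held both PRCre groups, and its median was 0.24.

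With both genotypes together, 28 of 35 members read higher in lesions than in eutopic endometrium, by a median of 0.31, against -0.09 over all features. Of these genes 0 passed in limma, where 1.24% of features did, and 3 had an unadjusted p under 0.05 (12.6% of features). The first was Pfkp (0.87 ± 0.26, adjusted p = 0.151, and 1.30 within slide 2), then Pfkfb4 (0.53 ± 0.19, adjusted p = 0.225, and 0.44) and Slc16a3 (1.75 ± 0.71, adjusted p = 0.312, and 2.25). Pfkfb4 read 0.40, 1.35 and 1.00 in PRCre eutopic endometrium, and array 2 was the highest of its group for all 3 genes. Without PRCre eutopic 2 the Slc16a3 difference was 2.58 (adjusted p = 0.00547), and without both doubted arrays it was 2.58 (0.00632), so this gene crosses the threshold with 1 array left out. The median over the 35 genes was 0.44 without both arrays. No member had all lesion arrays clear of all eutopic arrays, a pattern 1.21% of features showed. Without both arrays 2 members lay above without overlap, where 1.08% of features did.

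Eutopic endometrium against uterus gave no member past the threshold in either genotype or in both together, and 0 of all features passed in each (0%), with 1108, 2211 and 1301 features at an unadjusted p under 0.05 in ERBOE, PRCre and both. In ERBOE most members read lower in eutopic endometrium, with 8 of 9 genes of lower glycolysis lower (median -0.49) and 6 of 10 of upper glycolysis (-0.13): 26 of 35 genes were lower, with a median of -0.27, against 0.07 over all features, and 9 lay below without overlap, where 4.59% of features did. Those 9 were Hk2 (-0.49), Pfkl (-0.51), Aldoa (-0.53), Tpi1 (-0.52), Gapdh (-0.55), Pgk1 (-0.49), Ldha (-0.63), Epas1 (-0.22) and Egln3 (-2.52). Ldha read 6.06, 6.40 and 6.69 in ERBOE eutopic endometrium, against 7.12, 7.09 and 6.83 in ERBOE uterus. Pfkfb4 alone lay above (0.23), where 6.97% of features did. Within slides 2 and 3 the median was -0.43 and -0.58. Of the markers, 13 of 14 for proliferation (median -1.17) and 10 of 12 for epithelium (-0.76) also read lower, with 0 passing, and their part was not tested. In PRCre, 29 of 35 read higher in eutopic endometrium by a median of 0.19, but without PRCre eutopic 2 it was 14 of 35 and -0.08. ERBOE eutopic endometrium enters this comparison and the one with ERBOE lesions, so both comparisons share those arrays.

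ERBOE against PRCre within a tissue asks what ERβ overexpression changes in these pathways. In uterus glycolytic enzymes led the members, higher in ERBOE, and none passed. Eno1 read 5.33, 5.35 and 5.06 in ERBOE uterus, against 4.06, 4.65 and 4.59 in PRCre uterus, with no overlap and a difference of 0.81 ± 0.27 (n = 3 arrays per group; limma adjusted p = 0.392). It was 0.47, 0.70 and 1.27 within slides 1, 2 and 3, and 0.63 without PRCre uterus 1. Pfkl read 0.27, -0.07 and -0.06, against -1.31, -0.79 and -0.62, and also did not overlap (0.95 ± 0.39, adjusted p = 0.442, and 0.75 without that array). Aldoc read 3.80, 3.15 and 1.72 in ERBOE uterus, against 1.63, -1.54 and 0.36 in PRCre uterus, where the lowest ERBOE array lay just above the highest PRCre one. Its difference, 2.74 ± 1.13 (adjusted p = 0.445), was the widest of the 35 and was read alike by a second probe (2.81), with 1.36, 4.69 and 2.17 within slides and 3.48 without PRCre uterus 1. Car9, the tumour-associated carbonic anhydrase and a classical hypoxia marker, read -0.00, -0.11 and -1.09, against -1.82, -1.86 and -2.24 (1.57 ± 0.65, adjusted p = 0.445), though its second probe read 0.45. Egln1 read 4.28, 4.05 and 3.45, against 3.69, 2.73 and 2.96, with overlap (0.80 ± 0.35, adjusted p = 0.476).

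By role, 8 of 9 genes of lower glycolysis read higher in ERBOE uterus (median 0.41), as did 7 of 10 of upper glycolysis (0.20), while 5 of 8 hypoxia targets outside glycolysis read lower (-0.45). Without PRCre uterus 1 the medians were 0.44 for lower glycolysis, with 8 of 9 higher, 0.07 for upper glycolysis, with 7 of 10 higher, and -0.01 for the hypoxia targets, with 4 higher and 4 lower. Single genes that moved by over 1.5 times without it were Hk1 (0.07, against 0.79 with it), Epas1 (0.03, against 0.65), Bnip3 (0.10, against -0.65), Ankrd37 (2.42, against 0.73) and Egln3 (4.09, against 2.28), among others. In all 22 of 35 read higher, with a median of 0.28, against -0.11 over all features. In 9 members all ERBOE arrays lay above all PRCre arrays and in 1, Eno2, below, where 6.44% of features lay above and 8.37% below. The other 5 of these 9 were Hk2, Tpi1, Gapdh, Ldha and Ddit4. Limma passed 0 of 35 and 0% of features, with 5 members at an unadjusted p under 0.05 against 9.88% of features. Without PRCre uterus 1 the median was 0.14, and 14 members lay above and 4 below without overlap, against 11.9% and 14.6% of features in that smaller comparison. In uterus, 14 of 14 proliferation markers and 11 of 12 epithelial markers also read higher in ERBOE, with medians of 1.54 and 1.57 and 0 passing, and their part in these values was not tested.

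**Figure D4:**
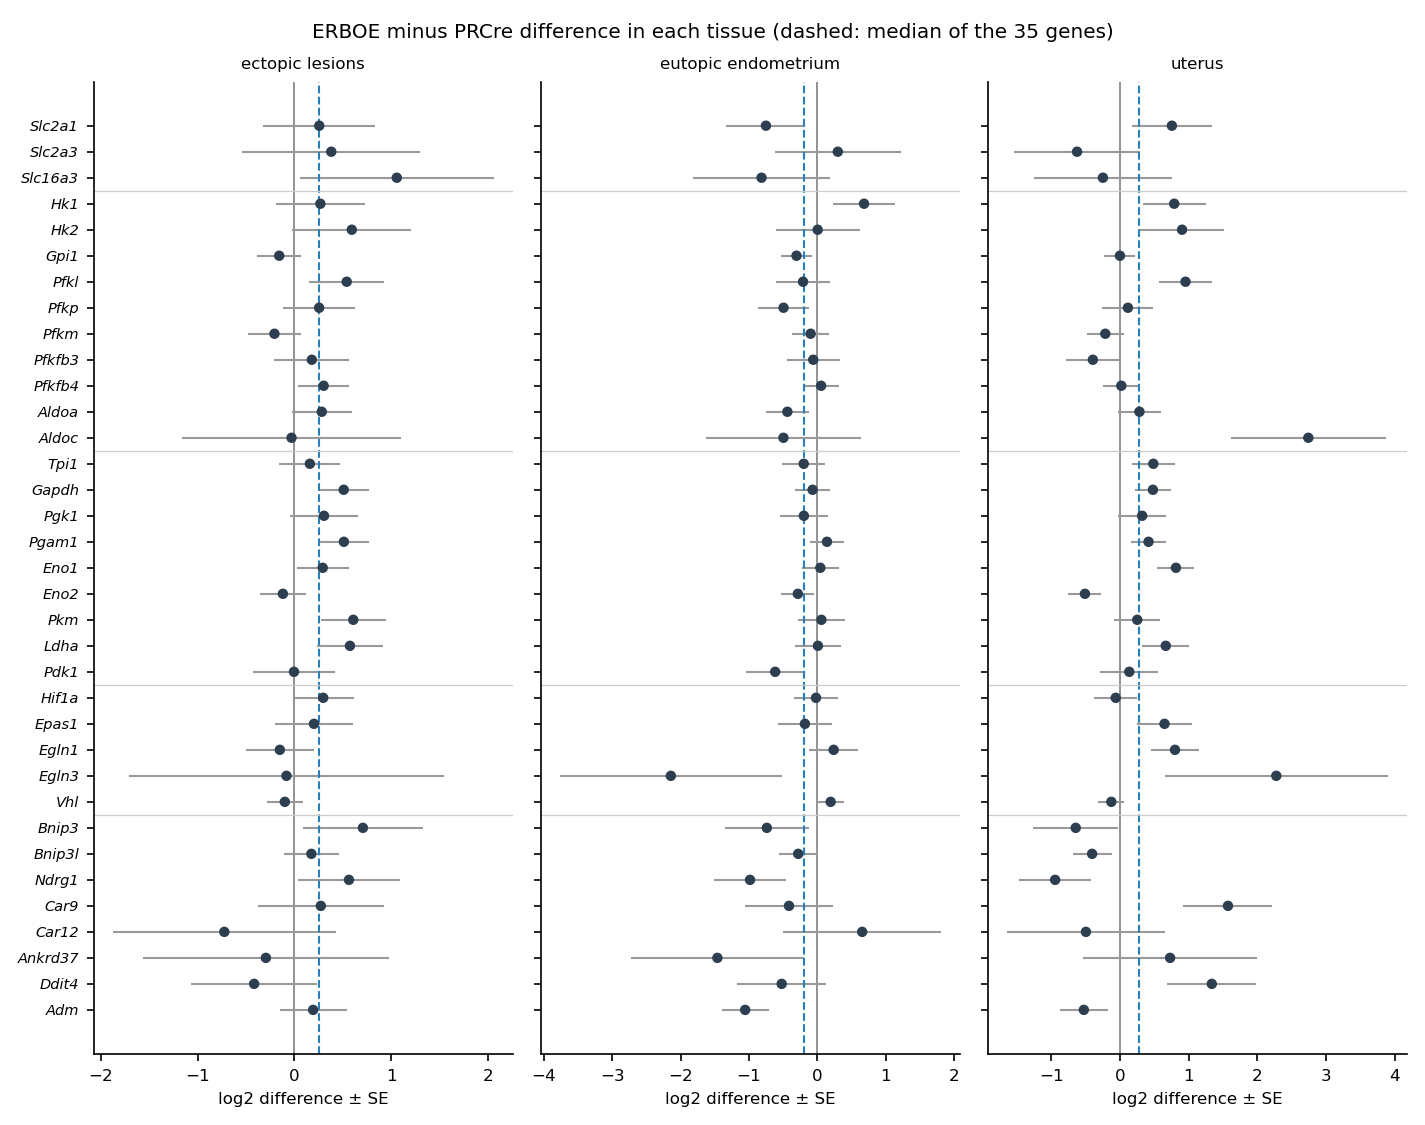
Log2 difference of ERBOE minus PRCre (point) with its standard error (line) for each of the 35 genes in lesions, eutopic endometrium and uterus, each panel on its own x axis, with a dashed line at the median of the 35 (0.26, -0.20 and 0.28). Most standard errors reach or approach 0, and Aldoc in uterus at 2.74 is the point furthest to the right.

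In eutopic endometrium the members read lower in ERBOE, and this rested on PRCre eutopic 2. Of 35 genes 24 read lower, with a median of -0.20, against -0.01 over all features. Without that array 19 read higher and the median was 0.15, so the direction turned. With PRCre eutopic 1 left out instead, the median was -0.46. It was 0.01 within slide 2 and -0.35 within slide 3. Adm was the 1 member whose ERBOE arrays all lay below the PRCre arrays (3.91% of features), at -0.15, -0.29 and -0.08 against 0.94, 1.52 and 0.19. Its difference was -1.06 ± 0.35 (unadjusted p = 0.00831; limma adjusted p = 1.00), -0.34 and -1.41 within slides 2 and 3, and -0.74 without PRCre eutopic 2. It was also the single member at an unadjusted p under 0.05, where 2.94% of features were. The adjusted test passed 0 of 35 and 0% of features. Of the markers, 12 of 12 for epithelium (median -0.41), 12 of 12 for adipocytes (-0.49) and 9 of 9 for smooth muscle (-0.38) read lower in ERBOE. For proliferation 14 of 14 (1.02) read higher. Of all these markers 0 passed, and their part was not tested.

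In lesions ERBOE read higher for 24 of 35 members, with a median of 0.26, against -0.06 over all features. Neither doubted array is in these groups, though both enter the shared spread. The highest differences were those of Slc16a3 (1.06 ± 1.00) and Bnip3 (0.71 ± 0.62). Pkm differed by 0.61, Hk2 by 0.59 and Ldha by 0.57. Pgam1, whose values are given above, did not overlap between the genotypes and had tight groups (0.51 ± 0.25). Hk1, Eno1, Pkm and Bnip3l also lay above without overlap, 5 of 35 in all and 0 below, where 5.16% of features lay above and 6.28% below. The adjusted test passed 0 of 35 and 0% of features, and 0 of 35 had an unadjusted p under 0.05, against 4.46% of features. The median was 0.38 within slide 1 and 0.11 within slide 2, and slide 3 held no PRCre lesion. In lesions 12 of 12 adipocyte markers (median 1.66) and 14 of 14 proliferation markers (1.00) also read higher in ERBOE, with 0 passing, and their part was not tested.

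The test of whether the genotype difference itself varied with tissue passed 0 members and 0% of features for each pair of tissues, with 545, 2237 and 1692 features at an unadjusted p under 0.05 for lesions minus eutopic, lesions minus uterus and eutopic minus uterus. For lesions minus eutopic endometrium 30 of 35 members were positive, with a median of 0.47 that was 0.06 without PRCre eutopic 2. For eutopic endometrium minus uterus 26 of 35 were negative, with a median of -0.55 that was -0.18 without PRCre eutopic 2, -0.43 without PRCre uterus 1 and -0.15 without both. For lesions minus uterus the median was -0.02. At an unadjusted p under 0.05 stood Adm for lesions minus eutopic endometrium (1.25 ± 0.49, limma adjusted p = 1.00; 1.64% of features) and Car9 for eutopic endometrium minus uterus (-1.98 ± 0.92, limma adjusted p = 0.960; 5.1% of features). These comparisons share arrays with each other and with those above.

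**Figure D5:**
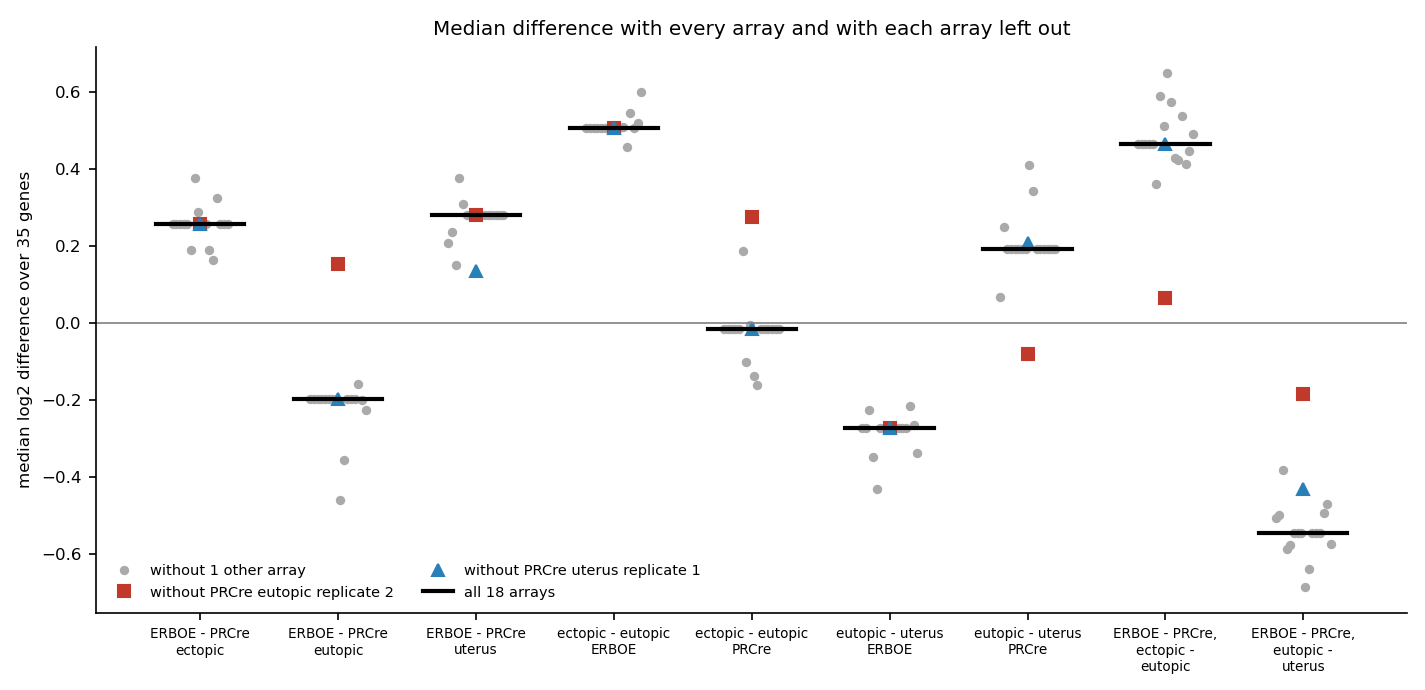
Median log2 difference over the 35 genes (y axis) for 9 comparisons, with all 18 arrays (bar) and with each array left out in turn (points), PRCre eutopic replicate 2 as squares and PRCre uterus replicate 1 as triangles. The square lies across 0 from the bar for ERBOE minus PRCre in eutopic endometrium (0.15, against -0.20 with all arrays) and stays on the bar in lesions.

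Around the members, the wider pathways were read from 40 other genes of glycolysis and pyruvate use, of which 38 were tested, and 40 other hypoxia genes, of which 39 were tested. Between lesions and uterus 3 of the 38 rose and 1 fell, and 2 of the 39 rose and 0 fell, against 1.42% of features higher and 0.669% lower. Pck1, an enzyme of gluconeogenesis and of glycerol synthesis in fat, read 1.24, 1.98 and 2.52 in ERBOE lesions and 1.23, 2.75 and -1.40 in PRCre lesions, against -0.77, -2.09 and -2.79 in ERBOE uterus and -1.41, -2.59 and -1.52 in PRCre uterus. It rose by 3.25 ± 0.64 (adjusted p = 0.0167), with PRCre lesion 3 at the uterus level. Gpd1, which makes glycerol 3-phosphate, rose by 3.00 ± 0.48 (adjusted p = 0.00455), and Pfkfb1, the liver form of the bifunctional enzyme, by 1.60 ± 0.26 (0.00568), both without overlap. Hmox1, haem oxygenase, rose by 1.76 and the lipid droplet gene Plin2 by 0.99. Pck1, Gpd1 and Plin2 are also expressed by adipocytes and Hmox1 by macrophages, whose markers are given above, and their part was not tested.

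Against eutopic endometrium, Pck1 (3.68), Gpd1 (2.73), Pfkfb1 (1.50) and Hmox1 (1.89) rose in lesions of both genotypes together, 3 of 38 and 1 of 39, where 0.931% of features rose. In ERBOE alone Gpd1 rose by 4.02, Pck1 by 4.64 and Pfkfb1 by 1.92 against eutopic endometrium, 3 of 38 and 0 of 39, where 0.464% of features rose. Against ERBOE uterus Pfkfb1 (2.23), Pygl, liver glycogen phosphorylase (1.72), and Plin2 (1.24) rose, 2 of 38 and 1 of 39, where 0.949% of features rose. In PRCre alone 0 of 38 and 0 of 39 passed against either tissue. There 0.00301% of all features passed against eutopic endometrium and 0.00904% against uterus. In the 3 genotype comparisons 0 of 38 and 0 of 39 passed.

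Of the 35 genes 16 had more than 1 probe, and second probes mostly read as the brightest did. The 6 Gapdh probes gave 0.40 to 0.57 between ERBOE and PRCre lesions and 0.13 to 0.48 in uterus. The Pfkfb3 probes gave 1.11 and 1.01 for lesions against uterus. Exceptions were Hk1, whose second probe was well above background on 15 arrays and read 0.28 in uterus between the genotypes where the brightest read 0.79 (0.07 without PRCre uterus 1), Pdk1, whose 4 probes gave -1.14 to 0.00 in lesions, and Pfkfb4, whose second probe was well above background on no array.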

How the data were processed

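RNA pooled from 3 animals was measured on 18 one-colour Agilent arrays, 3 per group. Per the file headers, each deposited scanner file holds processed intensity per spot, background-subtracted by Agilent's Feature Extraction. The authors' deposited value table holds log2 values of the same arrays, centred on each probe's mean, and served as an alternative. Here spots of a probe were averaged, control spots and outlier flags were left out, and log2 intensity was set against each array's 75th percentile. Features well above background on at least 3 of 18 arrays were kept, with the brightest probe for each symbol, 33179 in all. Of these 17897 had a symbol, and probes without a symbol were kept under their own identifiers. Shares and medians over all features thus include unnamed probes and features well above background on as few as 3 arrays. All 35 members had a symbol and were well above background on every array. A model of 6 group means was fitted with limma 3.58.1 in R 4.3.3, and p-values were adjusted by Benjamini-Hochberg over all features, with a threshold of 0.05. The model held no slide term. Slides were used as batches only in an alternative setting and in the differences given within slides. Pools are separate and lie on different slides, so p-values measure a spread between arrays that mixes pool and slide differences. The number of arrays limits the precision.

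The members, gene lists and tests were chosen with earlier results of these data known. All 35 members are named. By rule, values on every array go to members past the threshold and, where fewer than 6 pass, to those with the smallest p, up to 6 for the genotype and 6 for the tissue comparisons, and further members are given by role. Other pathway genes are given as counts and named where they passed, at most 10 per comparison. One pathway gene that passed lower in lesions against uterus is counted, and its values are not reported here. Same-numbered arrays deviated together, with all 3 correlations above 0.1, for ERBOE and PRCre uterus (0.31 to 0.45, each pair on one slide) and for PRCre lesions and PRCre eutopic endometrium (0.14 to 0.35), and for no other pair of groups. Alternatives were background correction (normexp with offset 50, run on the median signal column, since the scanner files hold no mean signal column), quantile normalization, filters, probe averaging, slide and replicate blocks, array weights, variance settings, the value table and leaving out each array. Leaving out both doubted arrays was chosen after seeing the data. The model fits were tested on simulated data.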

Additional observations from a re-analysis of the deposited data

How the results depend on the processing

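The settings were 10 processing alternatives, 18 single-array omissions and the omission of both doubted arrays, which was chosen after seeing the data. Over these settings the genes named by smallest p kept their direction and gave 395 values on the same side of the threshold, 22 newly past it and 18 no longer past it. All 18 were values of Pfkp in lesions against uterus, both genotypes. It was the single named result past the threshold in the main fit, and it passed in 11 of the 29 settings. The other named results were not past the threshold to begin with. The median over the members turned its sign for the genotype difference in eutopic endometrium without PRCre eutopic 2 (0.15, against -0.20). With 1 array omitted it also lay on both sides of 0 for lesions against eutopic endometrium in PRCre (-0.16 to 0.28). The same held for eutopic endometrium against uterus in PRCre (-0.08 to 0.41) and in both genotypes (-0.19 to 0.10). It held too for the genotype difference of lesions minus uterus (-0.14 to 0.07). Between lesions and uterus, both genotypes, 1 of 35 members passed as reported, 3 with normexp background, 3 with only features above background on all 18 arrays, 3 with trended and robust variance, 4 with array weights, 2 without both doubted arrays, 0 with no filter on dim probes and 0 with slide as a block. Omitting 1 array gave 0 to 4. Between lesions and eutopic endometrium, both genotypes, the count of 0 became 1 with array weights and 2 without both arrays, and was 0 to 1 with 1 array omitted. In ERBOE alone the count of 0 became 1 with array weights and 1 without both arrays against eutopic endometrium, and 3 and 1 against uterus, with 0 to 1 in each when 1 array was omitted. The share of all features past the threshold at each setting is not set beside these counts. They therefore do not show whether the members differed from other features. The median genotype difference of lesions minus eutopic endometrium was 0.06 without both arrays and 0.06 to 0.65 with 1 omitted, and that of eutopic endometrium minus uterus was -0.15 and -0.69 to -0.18. The cause was not tested.

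Of 45 pairs of same-numbered arrays 20 had deviations correlated above 0.1 (range -0.35 to 0.45), and 2 of 15 pairs of groups had all 3 above it: both uterus groups, and PRCre lesions with PRCre eutopic endometrium. These correlations do not show that same-numbered arrays pair animals. Each same-numbered pair of uterus arrays shared a slide, and no same-numbered PRCre lesion and PRCre eutopic arrays did. With the replicate block 0 of 35 members passed in each of these comparisons, as without it. Between lesions and uterus, both genotypes, 0 of 35 members passed with the replicate block, where Pfkp had a limma adjusted p of 0.0551. The block changed no other member call.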
